A study of Mus musculus with 9 samples.

Results

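The miR-29 family consists of the mature microRNAs (miRNAs) mmu-miR-29a, mmu-miR-29b and mmu-miR-29c (miR-29a, miR-29b and miR-29c from here on), and its levels were compared in the visual cortex of mice raised with and without normal vision. The members were taken as all array probes annotated with 1 of these 3 names, passenger strands (names ending in an asterisk) excluded, which gave 3 of the 611 mouse miRNA names on the arrays. Every sample was primary visual cortex taken from C57BL6 mice on postnatal day 28, and no allele or transgene is named in the labels. The control group (3 arrays) was kept under a normal light cycle, the dark-reared group (3 arrays) had been in darkness from birth, and the monocularly deprived group (3 arrays) had 1 eye sutured shut from postnatal day 24, with the cortex opposite the closed eye taken. Per the labels, each sample was 100 ng of total RNA labelled with Cy3 and hybridised at 64 °C to an Agilent mouse miRNA array. Whether the replicates came from different animals or from pools is not given in the labels. The p-values therefore cover only how far these samples scattered, and that scatter may be technical. The family was chosen for its known rise with cortical maturation. Every sample has the same age, so that rise could not be examined here, and the comparisons address only whether the family's levels differ with visual experience. The neuronal miRNAs miR-124 and miR-9 were detected on all 9 arrays.

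A miRNA guides the Argonaute silencing complex to messenger RNAs that pair with its seed, the bases near its 5′ end, and those messages are then repressed. The miR-29 family is known for its targets among extracellular matrix genes, such as collagens and elastin, and among the genes of the DNA methylation machinery, such as Dnmt3a and Dnmt3b. In mouse brain it is known to be enriched in astrocytes, to increase as neurons mature after birth, and to restrain pro-apoptotic BH3-only genes in mature neurons.

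The mature sequences show why the 3 members are one family and how little separates them on an array. They are given 5′ to 3′ from RefSeq (mouse build GRCm38.p6), with the seed, bases 2 to 8, in capitals.
mmu-miR-29a-3p: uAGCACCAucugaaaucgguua
mmu-miR-29b-3p: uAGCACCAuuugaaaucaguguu
mmu-miR-29c-3p: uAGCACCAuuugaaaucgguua

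The seed was the same in all 3, as were the first 9 bases. Counting from 1 at the 5′ end, miR-29a and miR-29c differed at a single base (C10U, the miR-29a base first). miR-29b differed from miR-29c at G18A, U21G and A22U and was 1 base longer, at 23 bases against 22. Mature miR-29a lies at chr6:31062673-31062694 on the minus strand. Mature miR-29b is encoded at both chr6:31063025-31063047 (minus strand, hairpin gene Mir29b-1) and chr1:195037091-195037113 (plus strand, hairpin gene Mir29b-2), and mature miR-29c lies at chr1:195037600-195037621 on the plus strand. The family thus comes from 2 pairs of hairpin genes, Mir29a with Mir29b-1 on chromosome 6 (275 bases between the hairpins) and Mir29b-2 with Mir29c on chromosome 1 (426 bases between them). Since both miR-29b hairpins give the same mature sequence, its signal cannot be divided between the 2 chromosomes.

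Each member was read by 2 DNA probes that are complementary to its 3′ end and differ in length by 1 base. The probe sequences follow, as deposited, with the base that pairs with position 10 of the miRNA in capitals.
miR-29a, 19 bases: taaccgatttcaGatggtg
miR-29a, 20 bases: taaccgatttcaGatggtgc
miR-29b, 20 bases: aacactgatttcaAatggtg
miR-29b, 21 bases: aacactgatttcaAatggtgc
miR-29c, 21 bases: taaccgatttcaAatggtgct
miR-29c, 22 bases: taaccgatttcaAatggtgcta

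The probes of miR-29a and miR-29c have 1 mismatch to the other's miRNA, and the miR-29b probes have 3 or 4 mismatches to the other members. Hybridisation of a probe to another member was not tested. Each probe had 10 spots per array. All 60 spots of the family were well above background on each of the 9 arrays and 0 were saturated, and 0 to 5 of the 60 were left out per array as outliers called by the scanner software. The spots of 1 probe on 1 array had a median coefficient of variation of 3.69% (0.914% to 8.50%). The unscaled intensity of a member ranged from 2771 for miR-29c on dark-reared replicate 2 to 13730 for miR-29a on control replicate 1. Over all bright probes, arrays of the same group differed by more than the scatter of spots.

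Each level is the log2 of a member's signal after division by the same array's 75th percentile, computed over bright probes, and a difference of 1 on this scale is a doubling of signal. miR-29a read 3.75, 3.66 and 3.82 on the control arrays, 3.73, 3.74 and 3.73 on the dark-reared arrays, and 3.81, 4.04 and 3.77 on the monocularly deprived arrays (replicates 1, 2 and 3 in turn). The dark-reared values lay inside the control range, and the highest value was that of monocularly deprived replicate 2. miR-29b read 3.41, 3.25 and 3.42 in control, 3.42, 3.34 and 3.40 in dark-reared, and 3.28, 3.60 and 3.25 in monocularly deprived cortex. For miR-29b, the third group held both the highest value and 1 of the 2 lowest. miR-29c read 2.86, 2.75 and 2.88 in control, 2.87, 2.79 and 2.90 in dark-reared, and 2.80, 3.21 and 2.73 in monocularly deprived cortex. Here too monocularly deprived replicate 2 stood highest, and the other arrays lay between 2.73 and 2.90. Different probes bind with different strength, so these levels do not rank the amounts of the 3 members.

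**Figure D1:**
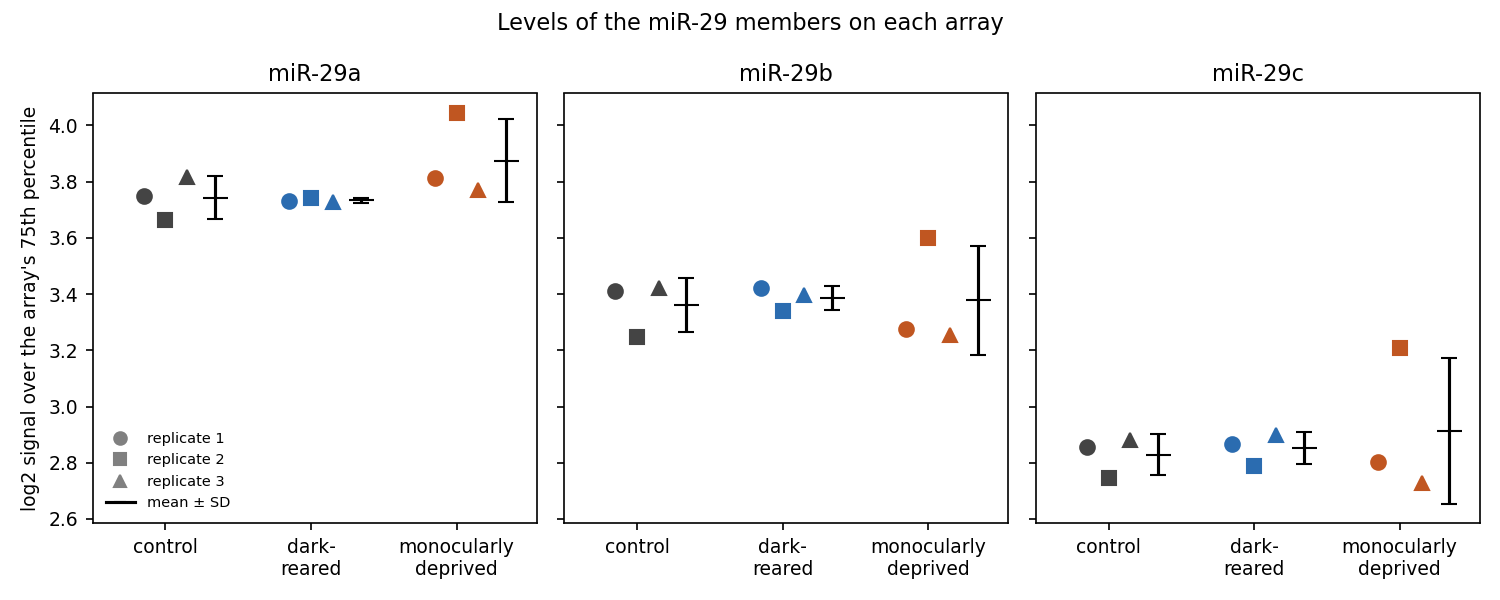
Level of each miR-29 member on each of the 9 arrays (vertical axis, log2 signal over the array's 75th percentile, shared by the 3 panels), with points for arrays, marker shapes for replicate numbers, and a bar for the mean ± SD of 3 arrays. Control and dark-reared arrays overlap for every member, and monocularly deprived replicate 2 is the highest array in each panel (4.04, 3.60 and 3.21).

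Dark rearing from birth was not accompanied by a detectable change in any member. miR-29a averaged 3.73 ± 0.0072 (SD, n = 3) in dark-reared and 3.74 ± 0.08 in control cortex, a log2 change of -0.01 (SE 0.09, adjusted p = 0.96 in limma, which was fitted to the 318 mouse miRNAs that 1 or more groups had detected on every array). The 95% confidence interval ran from -0.22 to 0.20, which is a ratio of 0.859 to 1.15. miR-29b averaged 3.39 ± 0.04 against 3.36 ± 0.10, a change of 0.03 (SE 0.11, interval -0.22 to 0.27, limma adjusted p = 0.938), and miR-29c 2.85 ± 0.06 against 2.83 ± 0.07, a change of 0.02 (SE 0.13, interval -0.27 to 0.31, limma adjusted p = 0.942). The groups overlapped for each of the 3. A change was called where the adjusted p was under 0.05. By that rule limma called 0 of 3 members (0 of 3 also at an unadjusted p under 0.05), beside 0.629% of all tested miRNAs (2 of 318, with 0.314% called higher and 0.314% lower, or 1 of 318 with the replicate number as a block). Groups did not overlap for 18.6% of the tested miRNAs. The 3 changes were also small among miRNAs: 3.46% of the tested miRNAs had a smaller absolute change than miR-29a, 10.4% than miR-29c and 11.9% than miR-29b. The cortex was sampled in bulk, so fewer cells of a type and less RNA per cell cannot be told apart in any value given here.

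After monocular deprivation no member passed either, although many other miRNAs did. miR-29a averaged 3.87 ± 0.15 (SD, n = 3) in monocularly deprived cortex, a log2 change of 0.13 from control (SE 0.09, 95% interval -0.08 to 0.34, limma adjusted p = 0.289). miR-29c averaged 2.91 ± 0.26 (change 0.08, SE 0.13, interval -0.21 to 0.38, limma adjusted p = 0.622), and miR-29b 3.38 ± 0.19 (change 0.02, SE 0.11, interval -0.23 to 0.27, limma adjusted p = 0.923). Both groups overlapped for every member. limma called 0 of 3 members, and 0 of 3 at an unadjusted p under 0.05, beside 33.0% of all tested miRNAs (105 of 318, with 15.7% called higher and 17.3% lower). Groups did not overlap for 52.8% of them. In this contrast 24.5% of tested miRNAs had a smaller absolute change than miR-29a, 16.0% than miR-29c and 4.72% than miR-29b. The 3 monocularly deprived arrays were the only arrays on slide 2 and in scan 2, whereas the 6 others shared slide 1 and scan 1, so slide, scan and deprivation cannot be told apart.

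The 2 deprived groups were compared directly, with the same limit from the slides. miR-29a was 0.14 higher on the log2 scale in monocularly deprived than in dark-reared cortex (SE 0.09, 95% interval -0.07 to 0.35, limma adjusted p = 0.276). Its groups did not overlap, the lowest monocularly deprived array at 3.77 and the highest dark-reared array at 3.74, a property it shared with 46.5% of the tested miRNAs. The other members overlapped, with a change of 0.06 for miR-29c (SE 0.13, limma adjusted p = 0.732) and -0.01 for miR-29b (SE 0.11, limma adjusted p = 0.954). limma called 0 of 3 members, and 0 of 3 at an unadjusted p under 0.05, beside 28.6% of all tested miRNAs (9.75% higher and 18.9% lower). The order of the 3 group means, with this scaling, differed between members. For miR-29a and miR-29c the monocularly deprived mean was highest and for miR-29b the dark-reared mean, but no neighbours in any of these orders differed beyond the spread of the arrays in limma.

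**Figure D2:**
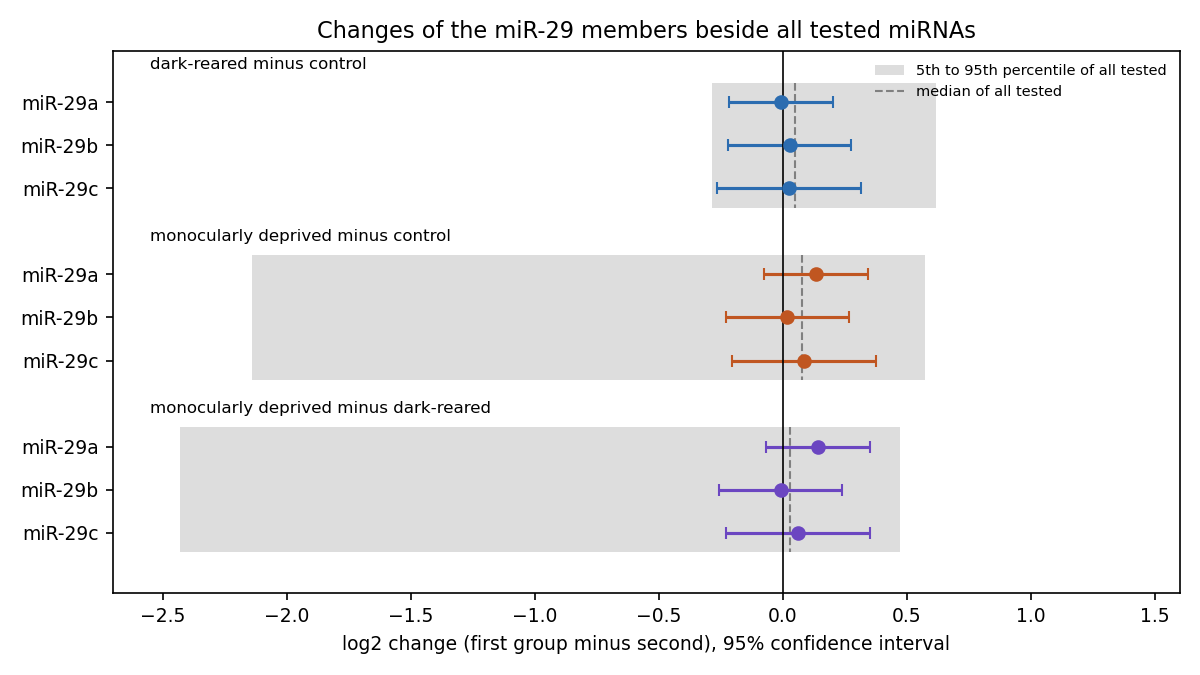
Log2 change of each miR-29 member (points) with its 95% confidence interval (bars) in the 3 comparisons, over the 5th to 95th percentile (grey) and the median (dashed) of all 318 tested miRNAs. Every interval spans 0, and the widest reaches 0.38, while the grey bands reach down to -2.14 between monocularly deprived and control and to -2.43 between monocularly deprived and dark-reared cortex.

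Much of the spread of the family came from 1 array. On monocularly deprived replicate 2, miR-29a lay 0.17 above its group mean, miR-29b 0.22 and miR-29c 0.30. The same array was high for other bright miRNAs: the median deviation of the 80 brightest tested miRNAs was 0.15 there, 83.8% of them lay above their group mean, and over all 318 tested miRNAs the median deviation was 0.09. Without that array, the log2 change from control was 0.05 for miR-29a (adjusted p = 0.614 in limma), -0.09 for miR-29b (adjusted p = 0.373 in limma) and -0.06 for miR-29c (adjusted p = 0.538 in limma), so the signs for miR-29b and miR-29c turned. The change from dark-reared cortex without it was 0.06, -0.12 and -0.09 in the same order. Control replicate 2 was the lowest control array for all 3 members, at -0.08, -0.11 and -0.08 from the group means. The 80 brightest miRNAs had a median deviation of -0.0035 on that array, and between 5.0% (for miR-29b) and 12.5% (for miR-29a) of them lay lower there than a member. The members rose and fell together over the control and monocularly deprived arrays. Their deviations from the group means correlated at r = 0.954 for miR-29a with miR-29b, 0.944 for miR-29a with miR-29c and 0.972 for miR-29b with miR-29c over 9 arrays. On the dark-reared arrays miR-29a deviated by -0.0033, 0.0083 and -0.0050, opposite in sign to the other members. Deviations of a miRNA outside the family, miR-340-5p, correlated with those of the family mean at r = 0.958. These values share each array's hybridisation and its scaling.

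The sizes depended on how arrays were put on a common scale. With the 75th percentile taken over all miRNA probes, most of them dim, the monocularly deprived minus control change was 0.68 for miR-29a (adjusted p = 0.00801), 0.57 for miR-29b (0.0181) and 0.64 for miR-29c (0.0137), each called by limma, as were 73.6% of all 318 miRNAs. The median of all 318 shifted as well, to 0.62, from 0.08 with the bright probes. Relative to that median the members were at 0.06, -0.05 and 0.02, beside 0.05, -0.06 and 0.01 with the bright probes. Quantile normalisation put the 3 members at -0.12, -0.06 and 0.05, where the median of all was 0.12. Without scaling they stood at -0.10, -0.21 and -0.15, and the median of all at -0.15. With normexp, a model-based background correction, before scaling on the bright probes they stood at 0.25, 0.13 and 0.19 (limma adjusted p of 0.591, 0.648 and 0.591), where the median of all was -0.42. The members thus lay 0.66, 0.55 and 0.61 above that median, while with the other settings they lay near or below it. Against dark-reared cortex, scaling on all probes gave 0.82, 0.67 and 0.74 (adjusted p of 0.00287, 0.0071 and 0.00556 in limma), with 77.7% of all 318 called and a median of all at 0.70. The number of called miRNAs also moved. In monocularly deprived against control cortex, 50 were called higher and 55 lower with the bright probes, 201 and 33 with all probes, 62 and 36 after quantile normalisation, 0 and 36 without scaling, and 0 and 2 with normexp.

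**Figure D3:**
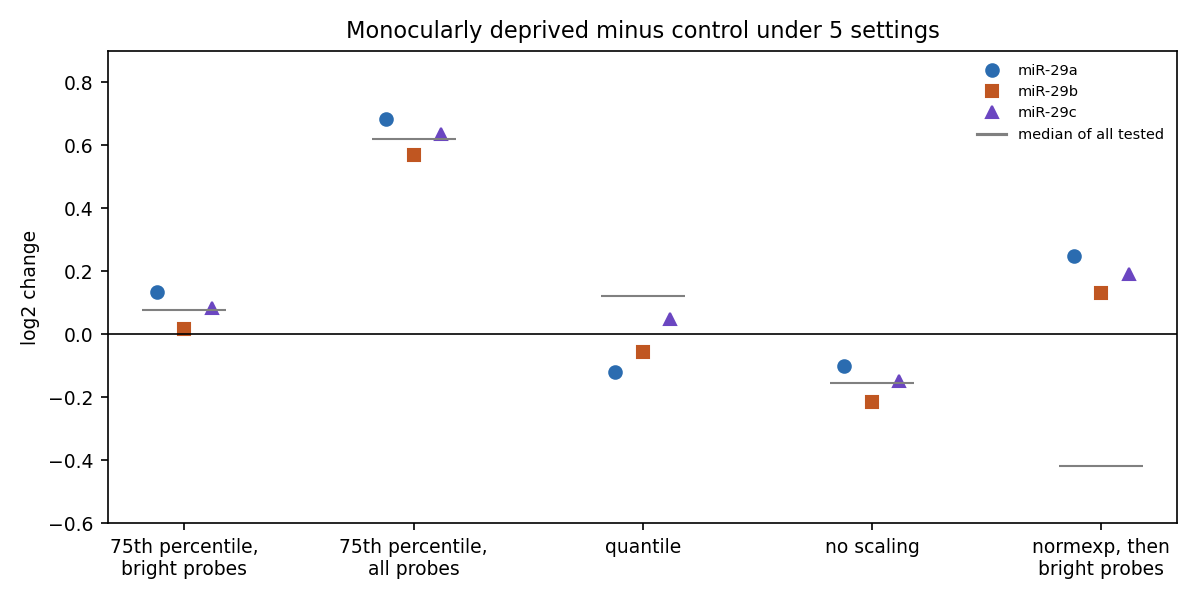
Log2 change between monocularly deprived and control cortex (vertical axis) of the 3 members (points) and the median of all 318 tested miRNAs (grey lines) under 5 ways of correcting and scaling the arrays. With bright probes, all probes and no scaling the members lie near the median (0.57 to 0.68 with all probes, -0.21 to -0.10 without scaling), after quantile normalisation they lie below it, and with normexp they lie above it.

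Differences between members of the same array do not depend on which value an array is divided by. On the log2 scale miR-29b read below miR-29a by -0.34, -0.41 and -0.40 on the control arrays, -0.31, -0.40 and -0.33 on the dark-reared arrays and -0.53, -0.44 and -0.51 on the monocularly deprived arrays. The monocularly deprived arrays were the 3 lowest, without overlap. The group means were -0.38 ± 0.04, -0.35 ± 0.05 and -0.50 ± 0.05 (SD, n = 3 each). The monocularly deprived mean was lower than control by a log2 difference of -0.11 and lower than dark-reared by -0.15. Each had p = 0.1 in a two-sided exact permutation test, the smallest p that 3 arrays against 3 can give, and 0.45 after Benjamini-Hochberg adjustment over the 9 within-array tests, so neither passed. Among all tested miRNAs, 54.6% of the 50403 pairs had within-array differences that did not overlap between monocularly deprived and control arrays, 52.3% between the deprived groups and 18.8% between dark-reared and control arrays. Such a difference is one of unequal signals within an array and does not show which miRNA moved, and it coincides with the slide. After quantile normalisation, which is not a division by 1 value, the differences from control and dark-reared cortex were 0.06 and 0.0032, and the groups overlapped.

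With this scaling the other pairs overlapped in every comparison. miR-29c minus miR-29a averaged -0.91 ± 0.02 in control, -0.88 ± 0.06 in dark-reared and -0.96 ± 0.11 in monocularly deprived cortex (n = 3 each, two-sided exact permutation p of 0.3 to 0.5). After quantile normalisation this pair turned and separated: it read -0.84 to -0.75 on the monocularly deprived arrays and -1.02 to -0.90 on the control and dark-reared arrays alike, a difference of 0.17 from control and 0.16 from dark-reared cortex. Quantile normalisation gives every array the same set of values, so these differences are steps between ranks. Monocularly deprived replicates 1 and 3, for example, had the same value. The share of all miRNA pairs that separate after quantile normalisation was not computed. The pair miR-29c minus miR-29b averaged -0.53 ± 0.03, -0.53 ± 0.03 and -0.46 ± 0.07 (n = 3 each, two-sided exact permutation p of 0.2 to 0.9). Dark-reared and control arrays overlapped in all 3 pairs, with mean differences between these groups of 0.04, 0.03 and -0.0035. Taken between arrays of the same number, miR-29b minus miR-29a was higher on the dark-reared array in 3 of 3 pairs, by 0.03, 0.01 and 0.06 (two-sided exact paired permutation p = 0.25, the smallest that 3 pairs can give), while each of the other differences had both signs. For the 2 members with neighbouring hairpins on chromosome 1, miR-29b and miR-29c, these p-values do not show that the difference was the same in the groups.

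**Figure D4:**
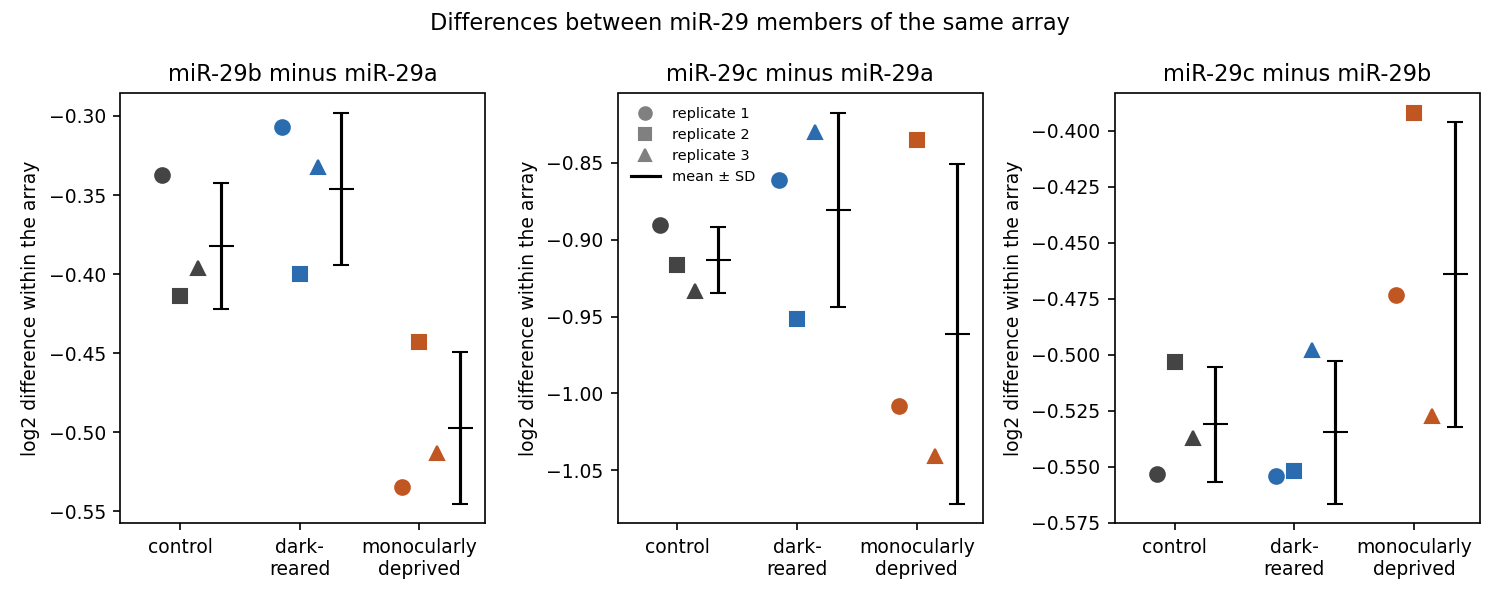
Log2 difference between 2 members of the same array (vertical axis, a separate range in each panel) for the 3 pairs of members, with points for arrays and a bar for the mean ± SD of 3 arrays. In the first panel all monocularly deprived arrays (-0.53 to -0.44) lie below all others, a separation not present after quantile normalisation, while the groups overlap in the other panels with this scaling (after quantile normalisation miR-29c minus miR-29a separates instead).

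The 2 probes of miR-29b did not move alike. The 21-base probe, which also pairs with base 3 of the miRNA, exceeded the 20-base probe by a log2 difference of 3.07 on each control array, 3.13 to 3.15 on the dark-reared arrays and 3.27 to 3.31 on the monocularly deprived arrays. The 3 groups did not overlap, as was so for 10.3% of the 281 probe pairs that read 1 miRNA. Such pairs did not overlap in 59.8% of cases between monocularly deprived and control arrays, 45.9% between the deprived groups and 19.6% between dark-reared and control arrays. Between monocularly deprived and control cortex the 20-base probe had a log2 change of -0.18 (SE 0.10, adjusted p = 0.2) and the 21-base probe one of 0.04 (SE 0.11, adjusted p = 0.798) in a limma fit of 528 probes, so with bright-probe scaling the probes differed in sign and neither passed. With scaling on all probes both changes were positive, at 0.37 (adjusted p = 0.0765 in limma) and 0.59 (adjusted p = 0.0117 in limma, called), and without scaling both were negative, at -0.41 and -0.19. The brighter 21-base probe carries most of the miR-29b value. With the mean of the log2 probe values in place of the linear mean, the log2 change of miR-29b from control was -0.07, and the within-array difference of miR-29b from miR-29a moved from -0.11 to -0.20. The probes of miR-29a differed by 1.36 to 1.44 in control, 1.42 to 1.51 in dark-reared and 1.42 to 1.44 in monocularly deprived cortex, and those of miR-29c by 0.13 to 0.18, 0.16 to 0.21 and 0.13 to 0.15. In this fit 0 of the 6 family probes were called in any comparison, also at an unadjusted p under 0.05, beside 34.3% of all probes between monocularly deprived and control cortex, 29.0% between the deprived groups and 0.947% between dark-reared and control cortex. With scaling on all probes, 5 of the 6 were called higher between monocularly deprived and control cortex, beside 78.6% of all probes, and 6 of 6 between the deprived groups, beside 85.4%.

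**Figure D5:**
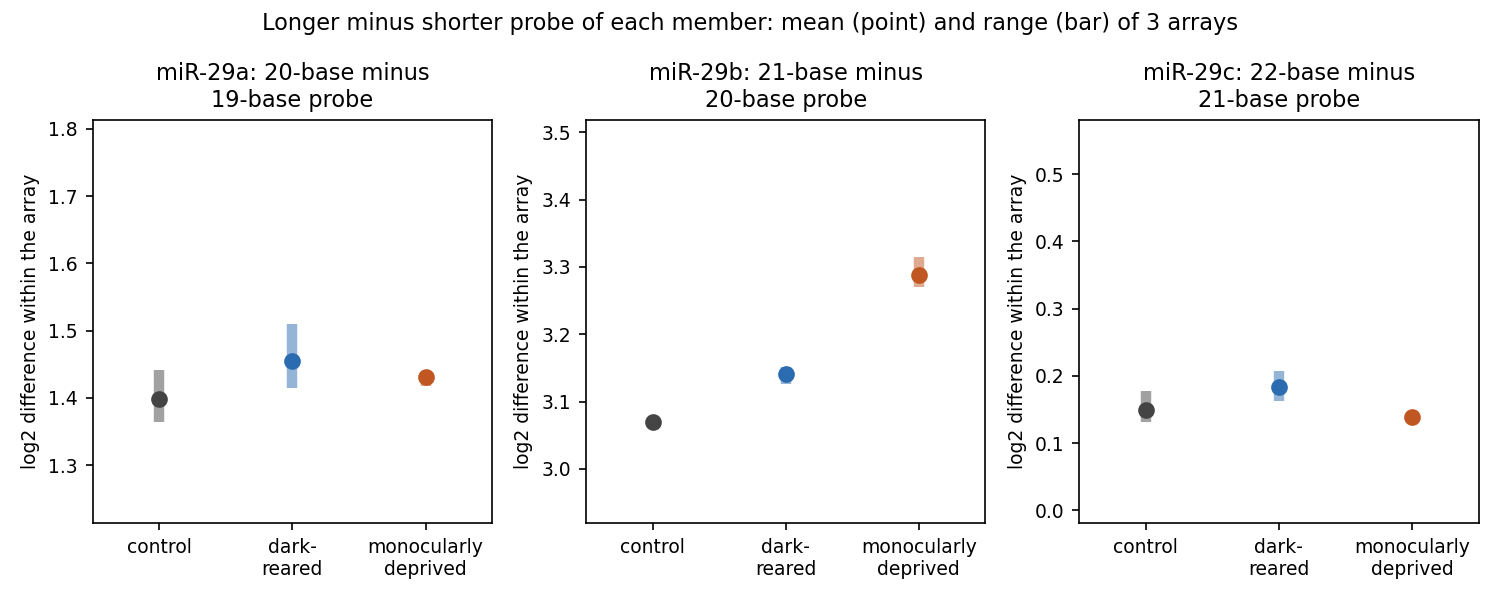
Log2 difference between the longer and the shorter probe of each member within an array (vertical axis, a range of the same width in each panel), with points for the mean and bars for the range of 3 arrays. The miR-29b pair steps from 3.07 in control to 3.29 in monocularly deprived cortex, while the groups of the miR-29a pair lie between 1.36 and 1.51 and those of the miR-29c pair between 0.13 and 0.21.

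The passenger strands, the other arms of the same hairpins, are usually degraded and were dim. miR-29c* was measured by 2 probes well above background on all arrays. It read -2.27, -2.23 and -2.10 in control, -2.10, -2.11 and -2.12 in dark-reared, and -2.20, -1.93 and -2.29 in monocularly deprived cortex, and all groups overlapped (limma adjusted p of 0.696 to 0.829). Each of miR-29a* and miR-29b* rested on 1 of 4 probes, the 22-base one. The probes named miR-29b* match the passenger strand of Mir29b-1. The log2 change of miR-29b* was 0.05 in dark-reared and 0.57 in monocularly deprived cortex relative to control (SE 0.26 each, limma adjusted p = 0.942 and 0.126). Its monocularly deprived arrays, at -5.87, -5.53 and -5.61, lay above the control arrays, at -6.68, -6.09 and -5.96. Groups did not overlap for 52.8% of all tested miRNAs in this contrast. The value of miR-29b* includes its shorter probes, which were well above background on 0 of 9 arrays. Its 22-base probe by itself changed by 0.24 (SE 0.13, limma adjusted p = 0.196). The strand miR-29a* had log2 changes of 0.14 and -0.25 (SE 0.16 each, limma adjusted p = 0.788 and 0.26). limma called 0 of the 3 passenger strands in each comparison. At an unadjusted p under 0.05, miR-29a* alone passed, between the deprived groups (-0.38). The 22-base miR-29a* probe by itself was called lower in monocularly deprived than in control cortex (-0.49, SE 0.11, limma adjusted p = 0.0103). It was well above background on 7 of 9 arrays, and scaling on all probes put its change at 0.06, where it was not called (limma adjusted p = 0.754). That scaling instead called the 22-base miR-29b* probe (0.80, limma adjusted p = 0.00795) and both miR-29c* probes (0.51 and 0.66, limma adjusted p of 0.0274 and 0.00848) higher in monocularly deprived cortex, beside the 78.6% of all probes.

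By Pearson correlation with the mean of the 3 members over the 9 arrays, the most similar of the 312 other tested miRNAs were miR-873 (r = 0.892), miR-107 (0.885), miR-340-5p (0.868), miR-344 (0.868) and miR-24-1* (0.862). The median over all 312 was 0.201. These correlations share each array's scaling and describe these arrays only. None of the 5 was called by limma in any comparison. In monocularly deprived against control cortex their log2 changes were 0.03, 0.12, 0.18, 0.18 and 0.22, beside 0.13, 0.02 and 0.08 for the family.

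Other miRNAs known to rise as cortex or neurons mature were set beside the family: 8 let-7 members, which repress growth-promoting genes, with miR-98 of the same family, miR-128, miR-138, miR-101a, miR-101b and miR-125b-5p. Of these 14, limma called 0 after dark rearing (1 at an unadjusted p under 0.05), where their median log2 change was 0.07, beside 0.05 for all tested miRNAs. After monocular deprivation 2 of 14 were called higher, miR-98 (0.26, SE 0.08, adjusted p = 0.0301 in limma) and miR-101b (0.22, SE 0.07, adjusted p = 0.0483 in limma), and 0 lower, beside 15.7% and 17.3% of all tested miRNAs, and the median was 0.13 beside 0.08 for all. Both were also called with scaling on all probes (adjusted p = 0.0046 and 0.00474 in limma), as were 73.6% of all tested miRNAs. Both calls were lost with quantile normalisation (adjusted p = 0.303 and 0.158 in limma), without scaling (0.998 each) and with normexp background correction (0.918 and 0.648, where miR-101b stood at -0.23). Neither was a miR-29 member.

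The family shares known target classes with other miRNAs. Of the 4 miRNAs known to target Dnmt genes (miR-148a, miR-148b, miR-152 and miR-143), limma called 0 after dark rearing (0 at an unadjusted p under 0.05) and 1 after monocular deprivation, miR-152 (0.47 higher, SE 0.11, adjusted p = 0.0122), a member of the miR-148 family, beside 15.7% of all tested miRNAs called higher. That call also stood with scaling on all probes (1.03, adjusted p = 0.00239 in limma) and with quantile normalisation (0.76, adjusted p = 0.0234 in limma). It did not stand without scaling (0.24, adjusted p = 0.998 in limma). With normexp background correction the change was -0.46 and was not called (adjusted p = 0.602 in limma). Of 8 tested miRNAs linked to matrix and fibrosis, 0 were called after dark rearing (0 at an unadjusted p under 0.05) and 2 fell after monocular deprivation, beside 17.3% of all tested miRNAs. They were miR-145, known in smooth muscle (-1.24, SE 0.24, adjusted p = 0.00703 in limma), and miR-30c (-0.80, SE 0.10, adjusted p = 0.000361 in limma). The signal of miR-145 was dim, averaging -6.32 in monocularly deprived cortex, where the floor was -7.89, and it was detected on 8 of 9 arrays. miR-30c was still called after quantile normalisation (-0.86, adjusted p = 0.000129 in limma). It was not called with scaling on all probes (-0.25, adjusted p = 0.244 in limma) or without scaling (-1.04, adjusted p = 0.0957 in limma). miR-145 was still called with scaling on all probes (-0.69, adjusted p = 0.0321 in limma) and without scaling (-1.48, adjusted p = 0.0095 in limma). After quantile normalisation miR-145 was not called (-0.65, adjusted p = 0.0907 in limma). With normexp both fell short as well (adjusted p = 0.433 for miR-30c and 0.591 for miR-145 in limma). No miR-29 member passed beside them.

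The family is itself part of the astrocyte or glial list, whose other tested miRNAs were miR-23a, miR-23b, miR-27a, miR-27b and miR-143. limma called 0 of these 5 in each comparison, and 0 at an unadjusted p under 0.05. Their summed level, on the log2 scale, was 2.51 to 2.60 in control, 2.39 to 2.49 in dark-reared and 2.32 to 2.70 in monocularly deprived cortex, and the highest value was again that of monocularly deprived replicate 2. miR-27a, for example, changed by -0.18 (SE 0.12, limma adjusted p = 0.636) with dark rearing and by -0.13 (SE 0.12, limma adjusted p = 0.409) with monocular deprivation.

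The arrays also carry miRNAs of other cell types, and their part in the family's values was not tested. The lists below hold 12 calls against control, to be read beside the 0.629% of all tested miRNAs called after dark rearing and the 33.0% called after monocular deprivation. Of these 12, limma called 6 with scaling on all probes, where 2 turned in sign, 7 after quantile normalisation, 2 without scaling and 0 with normexp background correction, where 2 turned in sign (lowest limma adjusted p = 0.313). For example, miR-132, known for its induction by neuronal activity, changed by -1.17 with dark rearing (limma adjusted p = 0.0365) and by -1.10 with normexp (limma adjusted p = 0.313). With monocular deprivation it changed by -0.51 (limma adjusted p = 0.0497), and by 0.04 with scaling on all probes (limma adjusted p = 0.872).

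With bright-probe scaling, of 6 neuronal miRNAs 1 fell after dark rearing (miR-132) and 3 fell after monocular deprivation (miR-9, miR-134 and miR-132). The summed level of the 6 after monocular deprivation was 5.85 to 6.37 beside 6.17 to 6.20 in control. Of 4 oligodendrocyte miRNAs 1 was called higher and 1 lower after monocular deprivation, with a summed level of 2.32 to 2.35 beside 2.05 to 2.35. Of 4 tested choroid plexus and epithelial miRNAs, 1 rose after dark rearing (miR-200b, 0.76, limma adjusted p = 0.045). That call was made with neither of the other scalings nor without scaling. The summed level of the list was -0.10 to 0.30 after dark rearing, beside -0.51 to -0.36 in control. That sum lay mostly in miR-204, which averaged -0.14 in dark-reared cortex, where miR-200b averaged -4.51. The change of miR-204 with dark rearing was 0.46 and was not called (limma adjusted p = 0.24). After monocular deprivation 2 rose (miR-200b and miR-429), with a summed level of -0.23 to -0.12. Of that list, miR-141 and miR-200c were detected on 0 of 9 arrays. Of 5 tested microglial and leukocyte miRNAs 1 fell after monocular deprivation (miR-150), with a summed level of -1.35 to -1.12 beside -1.25 to -1.11 in control. The list's miR-155 was detected on 0 of 9 arrays. Of 4 vascular miRNAs 2 fell after monocular deprivation, miR-126-5p (-0.63, limma adjusted p = 0.000339) and miR-145. Both were dim, averaging -4.86 and -6.32 in monocularly deprived cortex. The summed level, 0.96 to 1.08 beside 0.82 to 0.98 in control, lay mostly in miR-126-3p, which averaged 0.91. That other arm of the miR-126 hairpin changed by 0.18 from control and was not called (limma adjusted p = 0.123). Of 3 erythrocyte miRNAs limma called 0 (1 at an unadjusted p under 0.05), with a summed level of 1.43 to 1.59 beside 0.41 to 1.35.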

How the data were processed

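The deposited scanner files hold fluorescence intensity values of 13715 spots per array. The processed intensity used here is background-subtracted output of Agilent Feature Extraction 10.1.1.1, per the file headers, with no scaling across arrays by the authors. The intensity values in the authors' deposited series matrix equal them within a relative 1e-05 at 100% of spots. Outlier and control spots were left out, and intensity was averaged over a probe's spots and a miRNA's probes. Each array's values were divided by their 75th percentile (401 to 1022 intensity units) among 433 probes that all 9 arrays showed well above background, raised to the 1st percentile of detected values where lower, and put on the log2 scale. limma 3.58.1 (R 4.3.3) was fitted to 318 miRNAs on all 9 arrays (3 group means, 6 residual degrees of freedom), with Benjamini-Hochberg adjustment per comparison. The procedure was tested on simulated data with independent noise for each miRNA and array. That simulation held no shared effects of array or slide and so does not cover them. Control and dark-reared arrays of the same number deviated from their group means in parallel for replicates 1 and 3 (r = 0.887 and 0.815 across miRNAs). Control replicate 2 correlated at 0.324 with dark-reared replicate 2 and at 0.615 with dark-reared replicate 3. Whether the numbers pair these arrays is therefore not settled, and the main fit has no replicate block. No 2 arrays of a group agreed within spot noise. Named miRNAs were the members, their passenger strands, the 5 most correlated miRNAs, and list members past the threshold or, where none passed, up to 3 of smallest p. Further list members were named for a list's content, its detection, its summed level or the other arm of a hairpin. The members and lists were chosen with earlier results of these data known.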

Additional observations from a re-analysis of the deposited data

How the results depend on the processing

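Of 219 alternative values of the 9 changes of miR-29 members, many could not differ in size from the main value. The series matrix holds the same intensities. Other settings changed only which miRNAs were fitted, how the spread was estimated, or an array outside the comparison. limma called 6 of the 219, all with the 75th percentile over all miRNA probes. They were the changes of all 3 members in both comparisons with monocularly deprived cortex. That scaling gave 0.68, 0.57 and 0.64 for miR-29a, miR-29b and miR-29c (monocularly deprived minus control), 0.82, 0.67 and 0.74 (monocularly deprived minus dark-reared, the sign of miR-29b turned), and moved miR-29b and miR-29c to -0.10 each (dark-reared minus control). Without scaling, miR-29b and miR-29c turned to -0.20 each (dark-reared minus control) and the 3 members to -0.10, -0.21 and -0.15 (monocularly deprived minus control). Quantile normalisation gave -0.053 for miR-29c (dark-reared minus control), -0.12 and -0.056 for miR-29a and miR-29b (monocularly deprived minus control) and -0.060 for miR-29a (monocularly deprived minus dark-reared). Signs also turned with the brightest probe (miR-29a 0.0058, dark-reared minus control; miR-29b 0.0053, monocularly deprived minus dark-reared), the total gene signal (miR-29a 0.032, dark-reared minus control), all spots (miR-29b 0.017) and normexp (miR-29b 0.11, both monocularly deprived minus dark-reared). The mean of log2 probes put miR-29b at -0.0018 (dark-reared minus control) and -0.070 (monocularly deprived minus control), and within arrays gave miR-29b minus miR-29a -0.20 and -0.22 (monocularly deprived minus control, minus dark-reared) and miR-29c minus miR-29b 0.15 (monocularly deprived minus control). Quantile normalisation, added for these differences after the data were seen, gave miR-29b minus miR-29a 0.063 (monocularly deprived minus control) and 0.0032 (minus dark-reared), miR-29c minus miR-29a 0.17 and 0.16 in the same order, and miR-29c minus miR-29b 0.16 (monocularly deprived minus dark-reared) and -0.053 (dark-reared minus control). The cause of these turns was not tested.

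Leaving out each array in turn called no member. For dark-reared minus control it gave -0.049 to 0.027 (miR-29a), -0.029 to 0.057 (miR-29b) and -0.018 to 0.054 (miR-29c), for monocularly deprived minus control 0.048 to 0.19, -0.094 to 0.079 and -0.063 to 0.18, and for monocularly deprived minus dark-reared 0.057 to 0.19, -0.12 to 0.052 and -0.086 to 0.15. Counts of called miRNAs ranged from 0 to 3, 66 to 104 and 49 to 91 in these comparisons, beside 2, 105 and 91.

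The dark-reared minus control count was 1 with all-probe scaling, quantile normalisation, the mean of log2 probes, the total gene signal, all spots, and the replicate block (on all 9 arrays or on the 6 alone). It was 4 with miRNAs detected on all 9 arrays. limma called 0 without scaling (3 at an unadjusted p under 0.05), with normexp (2) and with a floor at the 5th percentile (34). The other counts were 234 and 247 with all-probe scaling, 36 and 37 without scaling, and 2 and 1 with normexp. The replicate block changed no member's call. For the within-array differences between dark-reared and control arrays, pairing by number was added after the data were seen. It leaves their means of 0.036, 0.033 and -0.0035 as they were by construction, because every array has a partner. Monocularly deprived arrays did not deviate in parallel with the same-numbered arrays (r of -0.38 to 0.21). They were on another slide and scan, so whether the numbers pair them is not settled either. The slide block was not run, because the monocularly deprived arrays alone make up slide 2.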
